A study of Mus musculus with 26 samples.

Results

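Astrocytes are the glial cells that clear glutamate from synapses, couple to each other through gap junctions and line the blood vessels of the brain with water channels. The 10 genes described here, Slc1a2, Slc1a3, Gfap, Aqp4, Aldoc, Gja1, Glul, Fgfr3, Apoe and Clu, were chosen by symbol as genes known for high expression in astrocytes. They are 10 of the 9574 genes in the tables, and each of the 10 had 1 transcript in every table.

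Slc1a2 (also GLT-1) and Slc1a3 (also GLAST) encode the main glutamate transporters of astrocytes, and Glul encodes glutamine synthetase, which turns the glutamate they take up into glutamine. Gfap is the intermediate filament by which reactive astrocytes are usually recognized, Gja1 is the gap junction protein connexin 43, and Aqp4 is the water channel of astrocyte endfeet. Aldoc is the brain form of the glycolytic enzyme aldolase and Fgfr3 is a fibroblast growth factor receptor. Apoe and Clu are secreted apolipoproteins that carry lipids between cells of the brain, and microglia make Apoe too.

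The data are ribosome footprints, the mRNA fragments that ribosomes protect from nuclease, and RNA-Seq of total RNA from the striatum of C57BL/6 mice aged 3 months. The question was how LRRK2, a kinase mutated in familial Parkinson's disease, changes translation. GS LRRK2 TG mice carried human LRRK2 with the kinase-activating G2019S mutation, and GS/DA LRRK2 TG mice carried it with G2019S and the D1994A mutation that removes kinase activity. Both were set against non-TG control mice, and LRRK2 KO mice, in which the gene is knocked out, were set against WT mice. The transgenes were under a doxycycline-regulated promoter driven by CaMKII-tTA, which is active in forebrain neurons and not in astrocytes, with doxycycline given until weaning. Each library came from pooled mice of both sexes, and the labels list 3 footprinting and 3 RNA-Seq libraries of non-TG control, 2 and 2 of each transgenic genotype, and 3 and 2 each of WT and LRRK2 KO.

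The tables hold 1 mean per genotype and assay in normalized reads, and the comparison tables were normalized separately, so levels are compared only within a table. The labels list only 1 set of non-TG control libraries for both transgenic genotypes, so their tables may share libraries, but the control means do not hold the same set of them. Control footprints of Lrrk2 were 2524 beside GS LRRK2 TG and 1335 beside GS/DA LRRK2 TG, while those of Slc1a2 were 10993 and 13849. For 10 of the 12 means, the reads of single libraries could be recovered from the digits of the means, and each of these 10 means held 2 libraries. The control means of the GS LRRK2 TG table were not resolved, so that comparison has no test. The tables carry no replicate number, so the libraries of a group are called the shallower and the deeper by their number of reads. This is set within each assay. In the paper's mapped reads, the WT and LRRK2 KO replicates with more footprint reads had fewer RNA-Seq reads, among those with both assays. If the recovered reads keep that order, the deeper footprinting and the shallower RNA-Seq library came from the same pool. For WT this order is weak, since the paper's footprint reads of these replicates are nearly equal, while the recovered WT libraries held 3073766 and 5216396. The assignment of libraries to pools was not tested. Reads in coding sequence (CDS) per library ranged from 2825265 in the shallower LRRK2 KO footprinting library to 18857396 in the deeper GS/DA LRRK2 TG footprinting library.

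All 10 genes were located in the mm9 genome by symbol. The positions are spans of the annotated gene, and the ID in parentheses is the transcript listed for it. Of the glutamate genes, Slc1a2 (uc008lid.2) lies at chr2:102498816-102630941, Slc1a3 (uc007vex.1) at chr15:8584124-8660764 and Glul (uc007daq.1) at chr1:155747074-155756853. Gfap (uc007lsw.2) lies at chr11:102748650-102762226, Gja1 (uc007fcc.2) at chr10:56097106-56110225 and Aqp4 (uc008edq.2) on chromosome 18. Aldoc (uc007kiw.1) lies at chr11:78136470-78141283 and Fgfr3 (uc008xbe.2) at chr5:34064373-34079716. Apoe (uc009fmy.2) lies at chr7:20281458-20284515 and Clu (uc007ujs.2) at chr14:66587320-66600385.

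The labels were checked on Lrrk2 itself. In LRRK2 KO, Lrrk2 footprints were 150 in the shallower and 102 in the deeper library, against 690 and 400 in WT, and Lrrk2 RNA was 270 and 423 against 733 and 1278. Both LRRK2 KO libraries lay below both WT libraries in each assay. Lrrk2 footprints in GS/DA LRRK2 TG were 4766 and 7267 against 1224 and 1445 in non-TG control. Those of GS LRRK2 TG were 7052 and 3320, against a control mean of 2524. Lrrk2 RNA did not separate either transgenic genotype from its control, with 214 and 3550 in GS LRRK2 TG against a control mean of 2105. The transgene is human and reads were aligned to the mouse genome. How much of its RNA these counts include was not tested. The tissue carried its defining markers, since all 18 striatal neuron markers listed were present in every table, led by Ppp1r1b (DARPP-32), the signalling protein of striatal projection neurons.

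Several of these genes have close relatives, so it was asked whether reads of footprint length could come from another gene. No window of 28 bases in the longest CDS of any of the 10 genes occurred exactly in the annotated CDS of another gene. With up to 1 mismatch, as the alignment allowed, 18 of the 1065 windows of Aldoc matched another gene, 13 of 2382 in Fgfr3, 8 of 1275 in Gja1, 7 of 1605 in Slc1a3 and 5 of 1266 in Gfap. The other five genes had 0 such windows. Exact runs shorter than such a window were shared with other genes, the longest of 27 bases in Gfap, so a footprint no longer than the run would match both genes. The runs are shown for Aldoc and Fgfr3, the genes with the most windows matched: bases 520 to 545 of the Aldoc CDS, shared with Aldoa, and bases 1561 to 1586 of Fgfr3, shared with Fgfr1, each 26 bases long.
Aldoc: tatgccagcatctgccagcagaatgg
Fgfr3: gagatggagatgatgaaaatgattgg

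The 10 genes covered most of the range of abundance. In WT, per kb of CDS, RNA-Seq placed Glul highest at 5946 normalized reads, followed by Aldoc at 4834, Apoe at 4118, Clu at 1930 and Slc1a2 at 1548. Slc1a3 followed at 657, Gja1 at 443, Gfap at 384, Aqp4 at 110 and Fgfr3 at 106. Neighbours in this order overlap between their WT libraries, except Slc1a2 with Slc1a3 and Gfap with Aqp4. In non-TG control of the GS/DA LRRK2 TG table the order began with Apoe at 21985 normalized RNA-Seq reads per kb, Glul at 13198 and Aldoc at 9850, and ended with Fgfr3 at 329 and Aqp4 at 192. Glul, Apoe and Aldoc lay at or above the 97.5 percentile of all transcripts in both tables, in RNA-Seq as in footprints.

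Translation efficiency (TE), the log2 ratio of footprints to RNA, differed widely among the 10 genes. In the non-TG control means of the GS/DA LRRK2 TG table, Slc1a2 had a TE of 2.28, at the 99.8 percentile of all transcripts, Aqp4 1.51 at the 97.5 percentile and Slc1a3 1.29 at the 95.1 percentile. Fgfr3 had the lowest of the 10, with -0.87 at the 14.3 percentile. In WT the same genes stood lower, with Slc1a2 at the 82.6, Aqp4 at the 61.9, Slc1a3 at the 42.2 and Fgfr3 at the 6.92 percentile. The difference rests in part on single libraries. In WT, the TE of Slc1a2 was -1.40 from the shallower libraries of both assays, at the 23.2 percentile, and 1.07 from the deeper libraries of both, at the 97.5 percentile. The shallower footprinting with the deeper RNA-Seq library gave -0.32, at the 66.0 percentile. The deeper footprinting with the shallower RNA-Seq library gave -0.01, at the 96.6 percentile. By the paper's mapped reads, these mixed pairings may be those within a pool, though the WT footprint reads there are nearly equal. In non-TG control its TE ranged from 1.57 to 3.56 over the pairings of libraries and stayed at or above the 90.5 percentile. The other values also depend on the pairing: Aqp4 ran from 0.90, at the 78.9 percentile, to 2.47, Slc1a3 from the 79.3 to the 91.3 percentile and Fgfr3 from the 9.35 to the 36.8 percentile. The order of Slc1a2, Aqp4 and Slc1a3 is thus not the same in every pairing.

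The genes shared little in the properties of their mRNA. The folding energy of the 5′UTR ran from -606.98 kcal/mol in Slc1a3, more stable than all but 1.69% of the transcripts of the GS LRRK2 TG table, and -293.91 in Slc1a2 to -39.2 in Glul and -25.6 in Gfap, beside a median of -91.15 over all transcripts. GC content of the CDS ran from 50.4% in Aqp4 and 51.6% in Slc1a2 to 62.5% in Apoe, beside a median of 52.8%.

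In LRRK2 KO the median footprint change of the 10 genes was close to 0, with Gfap lowest at -0.39, while their RNA-Seq means were mostly a little lower. The median log2 change was -0.03 in footprints, from -1.10 to 0.89 with a library left out, -0.15 in RNA-Seq and 0.08 in TE, against 0.02, 0.01 and 0.02 for all transcripts. Footprint means were higher in LRRK2 KO for 4 of the 10, beside 54.4% of all transcripts, RNA-Seq means for 1 of 10, Fgfr3, beside 51.3%, and TE for 6 of 10, beside 53%. In a bulk sample, fewer cells of a type and less RNA per cell cannot be told apart. None of the 10 genes passed limma at an adjusted p under 0.05 in footprints, RNA-Seq or TE, and 0% of all transcripts did in each. At an unadjusted p under 0.05 there were 0 of the 10 in each, beside 16 transcripts of 9529 in footprints, 7 of 9521 in RNA-Seq and 4 of 9513 in TE. Lrrk2 itself had an adjusted p of 1.00 in footprints and RNA-Seq, so this fit did not call the knocked-out gene. With a library block read from the values, which the labels do not give, Lrrk2 passed in footprints (adjusted p = 3.78e-22) and RNA-Seq (adjusted p = 2.95e-08), and 0 of the 10 genes passed. At an unadjusted limma p under 0.05 with that block there was 1 of the 10 in footprints, Gfap, beside 303 transcripts of 9529. In RNA-Seq there was 1, Slc1a2, beside 398 of 9521, and in TE 0, beside 186 of 9513.

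The counts in LRRK2 KO turned on single libraries. Without the shallower WT footprinting library, or without the deeper LRRK2 KO footprinting library, 0 of the 10 genes had more footprints in LRRK2 KO. Without the deeper WT or without the shallower LRRK2 KO footprinting library, 9 of 10 did. With the libraries matched by depth, as in the library block, 9 of 10 had fewer footprints in LRRK2 KO in the shallower libraries and 7 of 10 had more in the deeper, beside 54.0% and 58.8% of all transcripts. Leaving out 1 library compares libraries of different depth. In RNA-Seq, the count higher in LRRK2 KO was 6 of 10 without the shallower WT library, 6 without the deeper LRRK2 KO library and 2 without the deeper WT library. With libraries matched by depth, RNA was lower in LRRK2 KO for 9 of 10 in the shallower and 6 of 10 in the deeper libraries, beside 49.7% and 49.3% of all transcripts. The count with a higher TE was 1 of 10 without the shallower WT or the deeper LRRK2 KO footprinting library and 3 without the shallower WT or the deeper LRRK2 KO RNA-Seq library. It was 9 of 10 without the deeper WT footprinting library.

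**Figure D1:**
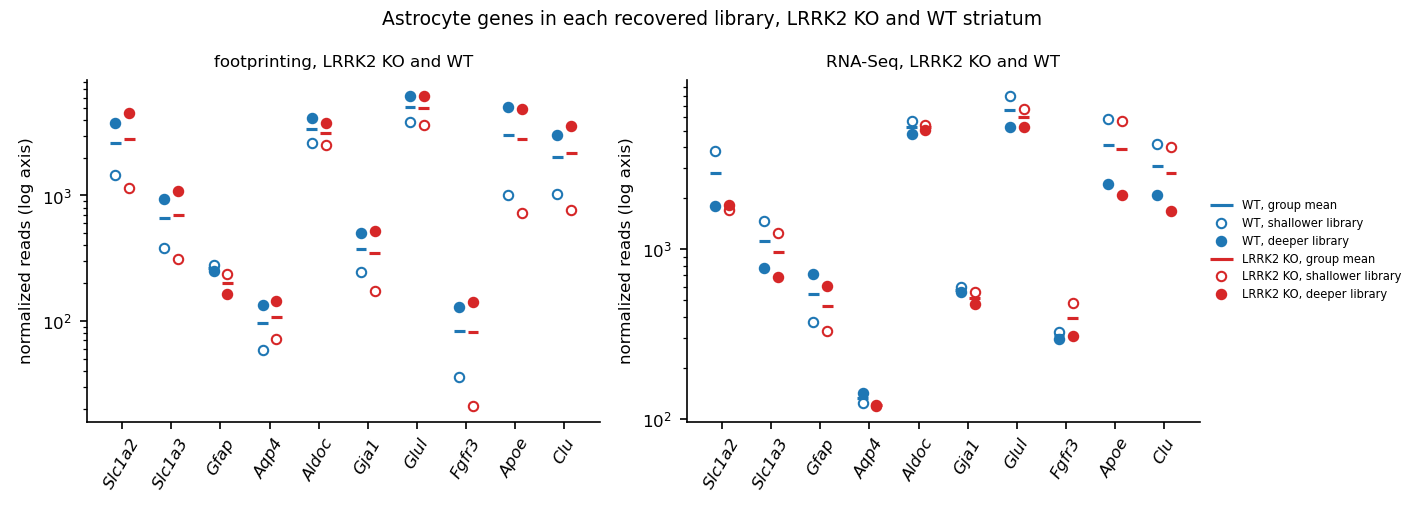
Normalized reads (log axis) of the 10 astrocyte genes in footprinting and RNA-Seq libraries of WT and LRRK2 KO striatum. Open and filled points are the shallower and the deeper library and short bars are group means. In footprints 9 of the 10 genes are higher in the deeper library of both genotypes, and Gfap is not.

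The widest differences among the LRRK2 KO and WT libraries lay within a genotype. Summed over the 10 genes, normalized footprints were 10942 in the shallower and 24238 in the deeper WT library, and 9631 and 25060 in LRRK2 KO. The median log2 ratio of the deeper to the shallower library was 1.25 in WT and 1.70 in LRRK2 KO, beside -0.01 for all transcripts in both genotypes. It was higher in the deeper library for 9 of the 10 genes in each genotype. In RNA-Seq the sums were higher in the shallower library, with 30477 and 18821 in WT and 26223 and 18103 in LRRK2 KO. By the paper's mapped reads, this may be the pool that is high in footprints. For all 10 genes, in both assays, the log2 change between the group means was smaller than the larger of the log2 differences between libraries of a genotype. This count is given without a share of all transcripts, so it describes single genes and is no trait of the set.

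Most of the other astrocyte genes listed were also higher in the deeper footprinting libraries. Of 40 listed, 38 were present, led by Mt3, and 37 of these were higher in the deeper WT footprinting library and all 38 in the deeper LRRK2 KO one, with medians of 1.09 and 1.51. Of 30 reactive astrocyte genes 9 were present, led by Hsbp1, with medians of 0.97 and 0.29. Of these, 5 were higher in the deeper library of each genotype, beside 49.0% and 48.8% of all transcripts, and their sums were 1941 and 1911 in WT and 1939 and 1727 in LRRK2 KO. In the group means Hsbp1 held 964 of 1926 footprints in WT and 930 of 1833 in LRRK2 KO, so these sums rest largely on that gene. Whether Hsbp1 footprints come from astrocytes was not tested, so the sums are no measure of reactive astrocytes. In RNA-Seq 16 of the 38 other astrocyte genes were higher in the deeper WT library and 11 in the deeper LRRK2 KO one, beside 50.7% and 50.5% of all transcripts, with medians of -0.04 and -0.31. The medians of the 10 genes were -0.44 and -0.29. Between genotypes the medians were -0.01 in footprints and 0.01 in RNA-Seq for the other astrocyte genes, and -0.05 and 0.03 for the reactive ones.

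Markers of other cell types differed between the same libraries, some in the direction of the 10 genes and some against it. Of 13 microglia markers 9 were present, and their footprints summed to 284 and 1202 in the shallower and deeper WT libraries and 278 and 1425 in LRRK2 KO, while their RNA summed to 1783 and 889 in WT and 2330 and 894 in LRRK2 KO. The 12 oligodendrocyte markers, all present, summed to 25751 and 18611 footprints in WT and 22757 and 21218 in LRRK2 KO. Their RNA ran against that of the 10 genes and was higher in the deeper library, with 22316 and 42691 in LRRK2 KO. The 18 striatal neuron markers summed to 45657 and 56097 footprints in WT and 45307 and 60650 in LRRK2 KO. The 10 pan-neuronal markers, led by Snap25, summed to 44723 and 48057 footprints in WT and 43728 and 45814 in LRRK2 KO. Their RNA was lower in the deeper library, as for the 10 genes, with 56152 and 30805 in WT and 41747 and 31399 in LRRK2 KO. The part of these cell types in the values of the 10 genes was not tested.

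**Figure D2:**
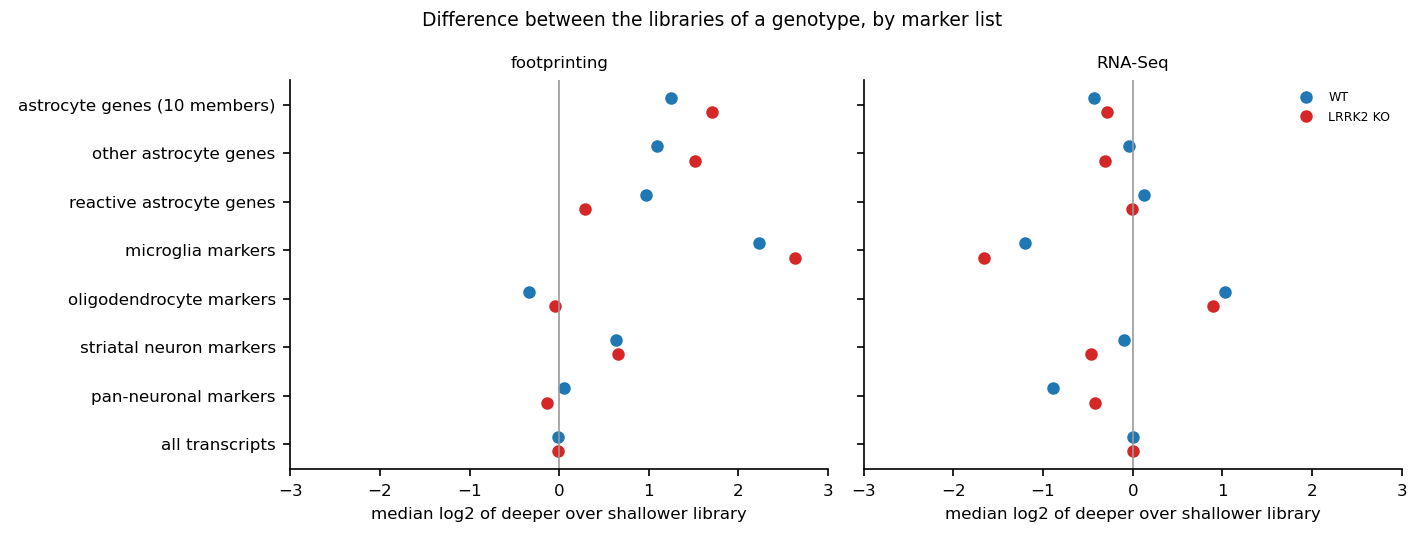
Median log2 ratio of the deeper to the shallower library of WT and LRRK2 KO, for marker lists, in footprinting and RNA-Seq. The 10 astrocyte genes stand at 1.25 and 1.70 in footprints, microglia markers at 2.23 and 2.63, and all transcripts at -0.01.

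In GS/DA LRRK2 TG, the footprints of the 10 genes were slightly higher than in non-TG control. All 10 had higher footprint means, beside 47.5% of all transcripts, with a median log2 change of 0.11 and a range from 0.01 in Aldoc to 0.25 in Gfap. Without the shallower GS/DA LRRK2 TG footprinting library, Slc1a3, Aldoc and Gja1 were no longer above control, but this compares libraries of different depth. Aldoc and Gja1 also fell below control without the deeper control library. Glul was level with control without the deeper GS/DA LRRK2 TG library, at -0.0007. The GS/DA LRRK2 TG libraries of Slc1a2 and Apoe were not resolved, so they could not be left out. Matched by depth, Gja1 footprints were higher in both, at 2529 against 2252 and 1576 against 1511. Slc1a3 and Aldoc were higher in the shallower libraries and about level in the deeper, at 4530 against 4537 and 12716 against 12722. RNA-Seq means were higher for 9 of 10, beside 64.7%, with a median of 0.11 that ran from -0.32 to 0.41 with single RNA-Seq libraries left out, and TE was higher for 3 of 10, beside 33.5%, with a median of -0.01. The count for TE became 7 of 10 when the changes were centred on the median of all transcripts, which was -0.05, and likewise when the group means were rescaled to the same totals. The medians of all transcripts were -0.01 in footprints and 0.06 in RNA-Seq.

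Single libraries were resolved in both groups for 6 of the 10 genes in footprints, 8 in RNA-Seq and 6 for TE, and only these could be tested. By limma, 0 of them passed at an adjusted p under 0.05 in any measure, and 0% of all transcripts did in each. At an unadjusted p under 0.05 there were 0 of these genes in each measure, beside 156 transcripts of 8400 in footprints, 0 of 8445 in RNA-Seq and 0 of 8342 in TE. Lrrk2 footprints, at a limma log2 change of 2.14, SE 0.22, had an adjusted p of 0.721. With the library block read from the values the SE was 0.10 and the adjusted p 0.00147, and 0 of the 6 genes passed. With that block 2 of the 6, Gfap and Fgfr3, had an unadjusted limma p under 0.05 in footprints, beside 1190 transcripts of 8400. Gfap and Fgfr3 were the only genes of the 6 whose footprinting libraries did not overlap between the groups, both higher in GS/DA LRRK2 TG, beside 12% of all transcripts.

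In GS LRRK2 TG, footprint means were again slightly above control for all 10 genes, beside 51.2% of all transcripts, with a median log2 change of 0.09 and a range from 0.04 in Apoe to 0.18 in Clu. Without the shallower GS LRRK2 TG footprinting library the count was 6 of 10, and without the deeper it was 8. The control mean lay below both GS LRRK2 TG libraries for Gfap, Aqp4, Glul and Clu and between them for the other 6. These positions are given without a share of all transcripts, so they describe single genes and not the set. RNA-Seq means were higher for 7 of 10, beside 44.3%, with a median of 0.07, and the count was 3 without the shallower GS LRRK2 TG RNA-Seq library. TE was higher for 5 of 10, beside 54.8%, with a median of 0.01. The control mean may share libraries with that of the GS/DA LRRK2 TG table, so the counts of both comparisons may not be independent.

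The study called a transcript TE up or TE down where the z score of its TE difference over all transcripts reached 1.5 or -1.5. By that rule Aqp4 and Gja1 were TE up in GS LRRK2 TG, 2 of 10 beside 8.01% of all transcripts, with z scores of 2.17 and 1.72. Slc1a2 was TE up in LRRK2 KO, 1 of 10 beside 6.23%, with a z score of 2.81. In GS/DA LRRK2 TG 0 of 10 were TE up, beside 3.65%. None of the 10 was TE down in any comparison, beside 3.91% in GS LRRK2 TG, 7.36% in GS/DA LRRK2 TG and 6.02% in LRRK2 KO. The rule has no replicate check, and limma called 0 transcripts in TE, beside 0 at an unadjusted p under 0.05 in GS/DA LRRK2 TG and 4 in LRRK2 KO.

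**Figure D3:**
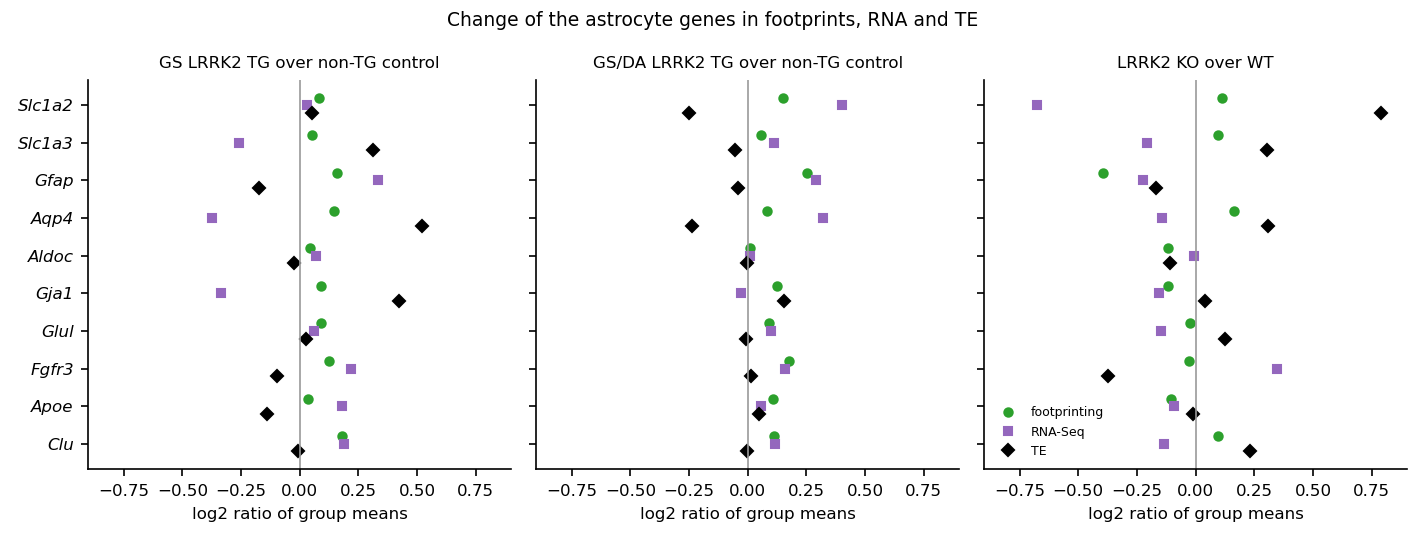
Log2 ratio of group means of each astrocyte gene in footprints, RNA-Seq and TE for GS/DA LRRK2 TG and GS LRRK2 TG over non-TG control and LRRK2 KO over WT. The point farthest from 0 is the TE of Slc1a2 in LRRK2 KO, at 0.79, beside its RNA-Seq change of -0.67.

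In the RNA-Seq of the transgenic tables, libraries of a group mostly differed more than the genotypes. This held for all 8 genes with resolved libraries in GS/DA LRRK2 TG and for 9 of 10 in GS LRRK2 TG, Apoe being the exception. These counts too stand without a share of all transcripts, so they are no result about the set. Slc1a2 RNA was 1212 in the shallower and 4491 in the deeper non-TG control library, 6260 and 1262 in GS/DA LRRK2 TG, and 846 and 4360 in GS LRRK2 TG. Aqp4 RNA moved the same way, with 123 and 336, 478 and 96, and 57 and 252. The other genes with resolved libraries were lower where Slc1a2 was higher, Apoe aside, such as Clu RNA with 12986 and 5171 in non-TG control and 5109 and 14568 in GS/DA LRRK2 TG. In each group 1 library is thus high for Slc1a2 and Aqp4 and low for the other genes resolved there except Apoe. Apoe RNA was not resolved in GS/DA LRRK2 TG, nor Glul RNA in non-TG control.

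Slc1a2 and Aqp4 also have the lowest GC content of the 10, and Apoe has the highest. Apoe RNA differed between libraries by a log2 ratio of 0.13 (non-TG control) and 0.04 (GS LRRK2 TG). Its split in GS/DA LRRK2 TG is unknown, since those libraries were not resolved. Whether GC content causes the split was not tested. Over all transcripts, Spearman's rho between GC content and the log2 ratio of the deeper to the shallower RNA-Seq library was -0.78 in non-TG control, 0.80 in GS/DA LRRK2 TG and -0.79 in GS LRRK2 TG. Over the astrocyte genes with resolved libraries it was -0.37, 0.83 and -0.48, from 9, 9 and 10 genes. Glul is missing from the -0.37 and Apoe from the 0.83. These are correlations across genes of the same library pair, and genes are not independent replicates. In the WT and LRRK2 KO libraries the rho over all transcripts was -0.04 and -0.27 in RNA-Seq and 0.54 and 0.23 in footprints. Footprints of non-TG control and GS/DA LRRK2 TG gave -0.43 and -0.47, and those of GS LRRK2 TG gave 0.31.

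Among the glutamate genes, Slc1a2 gave the largest value of the set. In LRRK2 KO, Slc1a2 RNA was 1690 and 1827 in the shallower and deeper libraries, against 3813 and 1800 in WT. The shallower WT library is high, and the other 3 lie close together. The log2 change of the means was -0.67, of which -0.03 was left without the shallower WT library. Slc1a2 footprints were 1139 and 4508 in LRRK2 KO against 1444 and 3775 in WT, so the genotypes overlap and each has a low and a high library. The TE change of 0.79 became 0.15 without the shallower WT RNA-Seq library, 0.26 without the shallower WT footprinting library and -0.52 without the deeper LRRK2 KO footprinting library. By limma the TE change was 0.53, SE 1.03, adjusted p = 1.00, and the RNA-Seq change -0.57, SE 0.41, adjusted p = 1.00.

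In the transgenic tables Slc1a2 footprints were 13366 and 14332 in non-TG control, with a GS/DA LRRK2 TG mean of 15380 whose libraries were not resolved. Those in GS LRRK2 TG were 12792 and 10499, on either side of the control mean of 10993. The log2 footprint changes were 0.15 and 0.08, and the TE changes were -0.25 in GS/DA LRRK2 TG and 0.05 in GS LRRK2 TG.

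Slc1a3, the other glutamate transporter, had 312 and 1091 footprints in LRRK2 KO and 378 and 933 in WT. Its RNA was 1243 and 687 in LRRK2 KO and 1459 and 770 in WT. The genotypes overlap in both assays. The deeper library is high in footprints and the shallower in RNA, which by the paper's mapped reads may be the same pool. In the transgenic table its footprints held close, with 4528 and 4537 in non-TG control and 4902 and 4530 in GS/DA LRRK2 TG. Slc1a3 RNA in GS LRRK2 TG was 1508 and 1190, both below the control mean of 1613, and the log2 RNA-Seq and TE changes were -0.26 and 0.31.

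Glul, which completes the glutamate cycle in astrocytes, had the smallest changes of the 3 in LRRK2 KO. Its footprints were 3675 and 6262 in LRRK2 KO against 3845 and 6251 in WT, and its RNA was 6712 and 5286 against 8060 and 5247. The log2 changes in LRRK2 KO were -0.02 in footprints and -0.15 in RNA-Seq. Its footprints in GS LRRK2 TG were 21599 and 20931, both above the control mean of 19995. The GS/DA LRRK2 TG footprints were 24227 and 27341, on either side of the unresolved control mean of 24238.

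Gfap, the filament protein, was the exception to the split between WT and LRRK2 KO footprinting libraries. Its footprints were 277 in the shallower and 252 in the deeper WT library and 238 and 165 in LRRK2 KO. Both LRRK2 KO libraries lay below both WT libraries, which held for 1 of the 10 genes, beside 6.41% of all transcripts. The log2 change was -0.39, and by limma -0.40, SE 0.26, adjusted p = 1.00. It ranged from -0.68 without the shallower to -0.15 without the deeper LRRK2 KO footprinting library. Gfap RNA overlapped between the genotypes, with 327 and 601 in LRRK2 KO and 370 and 715 in WT.

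The direction for Gfap was the opposite in GS/DA LRRK2 TG. Its footprints were 1308 and 1142 against 1060 and 1000 in non-TG control, so both libraries lay above both control libraries. By limma the log2 change was 0.25, SE 0.13, adjusted p = 1.00. Gfap RNA overlapped, with 704 and 1446 against 978 and 780. Its footprints in GS LRRK2 TG were 895 and 1069, above a control mean of 880, and its RNA was 1459 and 863, on either side of a control mean of 921. The difference between the comparisons was not tested.

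Gja1, the gap junction protein, varied most among the footprinting libraries of the transgenic genotypes, of the genes whose libraries were resolved. Its footprints were 2252 and 1511 in non-TG control, 2529 and 1576 in GS/DA LRRK2 TG and 1333 and 1972 in GS LRRK2 TG. The libraries of a group stand farther apart than the group means. Its RNA in GS LRRK2 TG was 884 and 497, on either side of the control mean of 870, which gave a log2 RNA-Seq change of -0.33 and a TE change of 0.42. The TE change ranged from 0.07 without the deeper to 0.90 without the shallower GS LRRK2 TG RNA-Seq library. In LRRK2 KO its footprints were 172 and 520 against 246 and 505 in WT, with a log2 change of -0.12.

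Aqp4, the water channel, was the least abundant of the 10 in footprints after Fgfr3. Its footprints were 544 and 575 in GS LRRK2 TG, both above the control mean of 506. Its RNA there was 57 and 252, on either side of the control mean of 200. The TE change of 0.52 thus rests on the shallower RNA-Seq library, and it was -0.18 without that library. Its GS/DA LRRK2 TG footprints were 723 and 669 against 684 and 629 in non-TG control. The groups overlap, and matched by depth both libraries were higher in GS/DA LRRK2 TG. In LRRK2 KO, Aqp4 RNA was 120 and 119 against 123 and 141 in WT, the only 1 of the 10 genes with both LRRK2 KO RNA-Seq libraries below both WT libraries, beside 7.04% of all transcripts. These levels rest on 91 and 228 reads against 64 and 188, and by limma the difference did not pass. Its footprints were 71 and 144 against 59 and 134, with a log2 change of 0.16.

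Aldoc, the glycolytic enzyme, had the smallest footprint change of the 10 in GS/DA LRRK2 TG. Its footprints were 16679 and 12722 in non-TG control and 16856 and 12716 in GS/DA LRRK2 TG, a near match library for library, with a log2 change of 0.01. The GS LRRK2 TG footprints were 11125 and 13582, on either side of the control mean of 11986. In LRRK2 KO its footprints were 2512 and 3766 against 2626 and 4178 in WT, and its RNA was 5427 and 5047 against 5725 and 4803. The log2 changes in LRRK2 KO were -0.12 in footprints and -0.01 in RNA-Seq.

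Fgfr3, the growth factor receptor, had the fewest footprints. In LRRK2 KO they were 21 and 142 against 36 and 130 in WT, from 15 and 207 reads against 27 and 167, so the shallower libraries hold few reads. Fgfr3 RNA was 479 and 309 in LRRK2 KO and 324 and 296 in WT, and its log2 RNA-Seq change of 0.35 was the only one above 0 among the 10 genes. Without the shallower LRRK2 KO RNA-Seq library that change was -0.006. Its TE change was -0.37, with a z score of -1.45. Its footprints in GS/DA LRRK2 TG were 604 and 581 against 535 and 515 in non-TG control, without overlap, and limma gave a log2 change of 0.17, SE 0.11, adjusted p = 1.00. The values in GS LRRK2 TG were 522 and 401, on either side of the control mean of 423.

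Apoe, the lipid carrier of the brain, showed the widest split between the WT and LRRK2 KO footprinting libraries. Its footprints were 1005 in the shallower and 5054 in the deeper WT library and 723 and 4904 in LRRK2 KO. Its RNA was higher in the shallower library, with 5855 and 2423 in WT and 5685 and 2075 in LRRK2 KO. By the paper's mapped reads, this may be the pool that is high in footprints. The log2 differences between libraries were 2.33 and 2.76 in footprints, while the genotype change was -0.11. Where the other genes split, Apoe RNA held steady, with 21118 and 23072 in non-TG control and 21794 and 22393 in GS LRRK2 TG. Its GS/DA LRRK2 TG RNA-Seq libraries were not resolved. Both GS LRRK2 TG libraries lay above the control mean of 19526, with a log2 change of 0.18.

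Clu, the other secreted apolipoprotein, resembled Apoe in LRRK2 KO and WT. Its footprints were 768 and 3558 in LRRK2 KO against 1026 and 3025 in WT, and its RNA was 3981 and 1679 against 4151 and 2073. The genotypes overlap in footprints, with a log2 change of 0.09. Clu footprints in GS LRRK2 TG were 11761 and 11918, both above the control mean of 10463, and the log2 change of 0.18 was the largest of the 10 in that comparison. Those in GS/DA LRRK2 TG were 15046 and 13461, above an unresolved control mean of 13189, with a log2 change of 0.11.

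**Figure D4:**
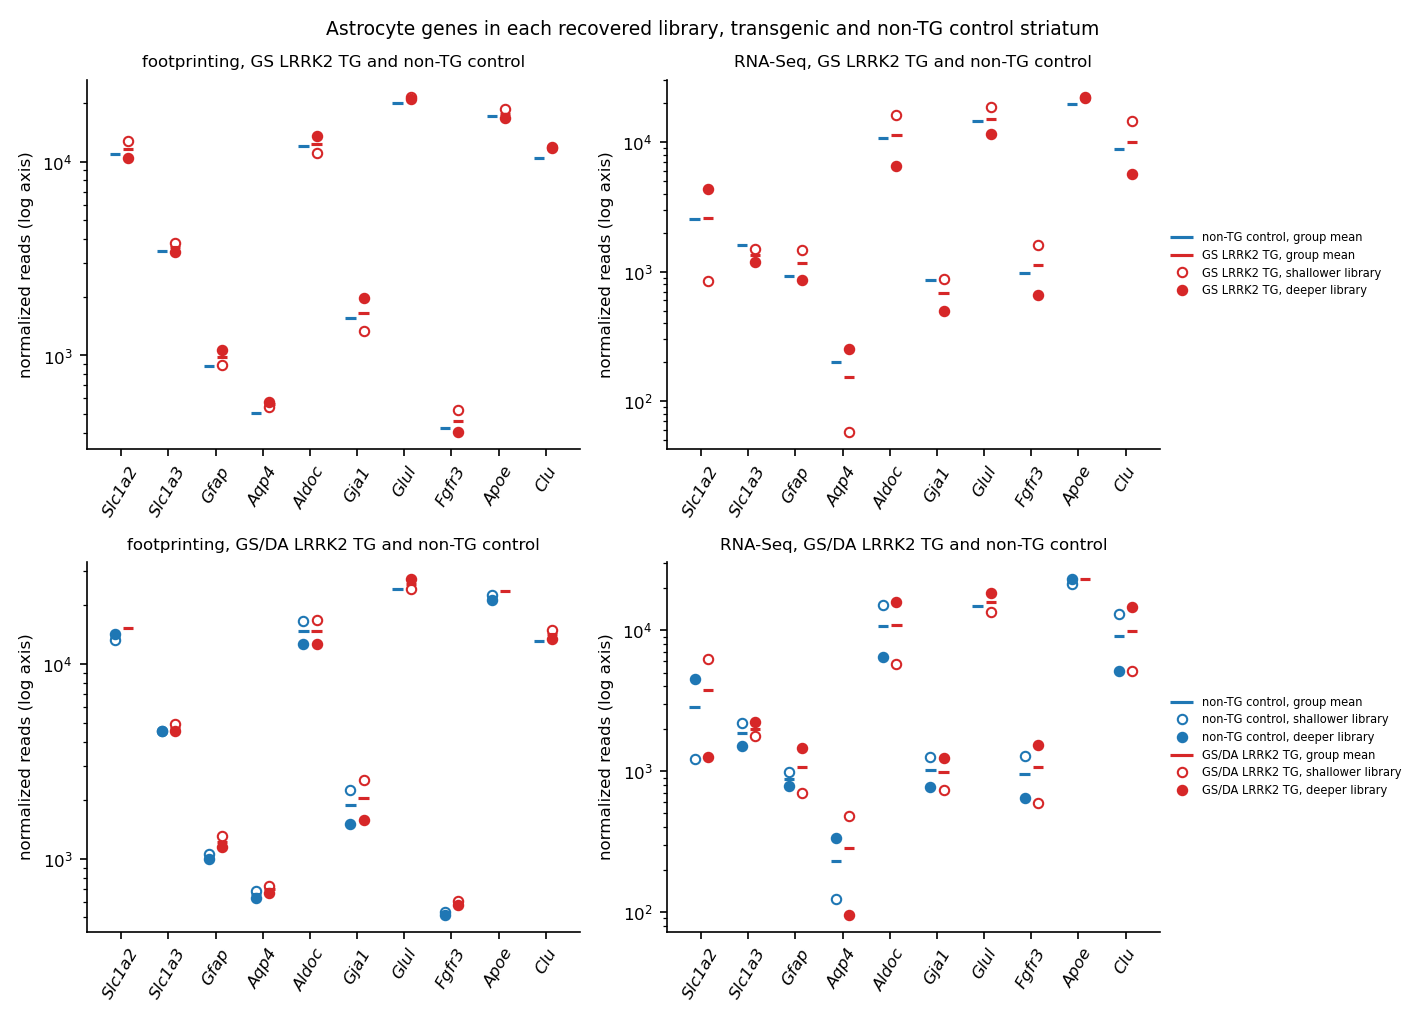
Normalized reads (log axis) of the 10 astrocyte genes in GS/DA LRRK2 TG and GS LRRK2 TG striatum with their non-TG control. Open and filled points are the shallower and the deeper library, short bars are group means, and genes or groups without points were not resolved. In RNA-Seq, Slc1a2 is 1212 and 4491 in non-TG control and 6260 and 1262 in GS/DA LRRK2 TG.

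Marker lists give the background in the transgenic tables. For the 36 other astrocyte genes present, the median footprint change was 0.10 in GS LRRK2 TG, above 0 for 30, and 0.01 in GS/DA LRRK2 TG, above 0 for 19. For the 8 reactive astrocyte genes present it was 0.15 and 0.23. Endothelial and mural markers, with only 2 of 14 present, had medians of 0.28 and 0.05. The 18 striatal neuron markers had medians of -0.09 and -0.20, and their summed footprints were 163440 against 174770 in GS LRRK2 TG and 193116 against 231943 in GS/DA LRRK2 TG. The 12 oligodendrocyte markers had 0.16 and 0.05, with Mbp most abundant, the 9 microglia markers present 0.08 and 0.08, and the 10 pan-neuronal markers -0.05 and 0.06. Choroid plexus and ependymal markers, 3 of 10 present and led by Ttr, summed to 1075 footprints in GS LRRK2 TG against 4370, and to 3609 in GS/DA LRRK2 TG against 9713. The control libraries of the latter held 17804 and 1622, so this sum depends on a single library. The 6 cortical projection neuron markers present had a median of 0.67 in GS/DA LRRK2 TG and -0.09 in GS LRRK2 TG. The part of these cell types in the footprint changes of the 10 genes was not tested.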

How the data were processed

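The members and marker lists were chosen with earlier results of these data known. Reads were aligned by the authors to mm9 with TopHat2 2.0.11 and Bowtie2 2.2.2, at most 1 mismatch allowed, and counted in the CDS over isoforms. The deposited group means are a signal normalized by the authors with DESeq 1.20, for transcripts above a read minimum of 128. The 5′UTR folding energy was deposited by the authors in kcal/mol as the lowest over isoforms. The deposited columns of log2 TE, TE difference and z score, a score per transcript, were not used.

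Log2 changes were computed from the group means with no pseudocount, and TE as footprinting minus RNA-Seq. Each mean of 2 libraries is a sum of read counts, each times a step of its library. Reads were used only if a single solution existed, which held for 98.3% to 99.8% of transcripts. limma 3.58.1 in R 4.3.3 was run on the log2 of recovered levels plus 10 over all transcripts of a table, without a block, adjusted by Benjamini-Hochberg. A count model was planned if the files held reads per library, and limma was used because they hold a normalized signal. The recovery of libraries and the limma fit were also run on simulated data. Those runs are given without an outcome, so they do not show how either performs at the spread seen here. Between the recovered libraries, the log2 ratio of deeper to shallower had an SD from 0.27 (non-TG control footprints) to 1.72 (GS/DA LRRK2 TG RNA-Seq). Without a block, limma did not call Lrrk2 in LRRK2 KO. As a check of the recovery, means shifted off their values gave a single solution for 0.0941% to 6.82% of transcripts. A p-value measures only the spread between these pools. CDS sequences and gene positions came from the NCBIM37 annotation, and 97.0% or more of the transcripts of a table matched it. Genes named are the 10 members, Lrrk2, relatives that share sequence with a member, and of some other lists the most abundant gene.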

Additional observations from a re-analysis of the deposited data

How the results depend on the processing

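No paired analysis was possible because the columns are group means that carry no replicate number. This refers to replicate numbers in the columns. The paper lists mapped reads by replicate, but assigning the recovered libraries to replicates by depth was not tested. The library block was instead read from the values, by how libraries differ within each group. With it Lrrk2 passed in GS/DA LRRK2 TG footprints and in LRRK2 KO footprints and RNA-Seq, limma called 0 of the astrocyte genes, and calls over all transcripts went from 0 to 26 in GS/DA LRRK2 TG footprints, 15 in LRRK2 KO footprints and 11 in LRRK2 KO RNA-Seq. Calls over all transcripts in GS/DA LRRK2 TG footprints were 2 to 32 with a library left out. The limma count of 0 astrocyte genes was the same under every pseudocount, filter, centring and left-out library tried. A lone library left in a group was assumed to vary like those of the other group.

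The median footprint change in GS LRRK2 TG was 0.099 when rescaled to the same totals. Astrocyte genes TE up in GS LRRK2 TG numbered 1 at a z cutoff of 2 and 3 at a cutoff of 1, where 1 was TE down. In GS/DA LRRK2 TG 1 was TE up at a cutoff of 1 and 1 with z from the median and MAD. LRRK2 KO had 3 genes TE up and 1 gene TE down at a cutoff of 1, and 1 was TE down with z from the median and MAD. These counts are given without the share of all transcripts at the same setting. They show only how the calls move with the rule, and are no result about the genes.

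The counts of genes above 0 and their alternatives, libraries matched by depth included, were chosen after seeing the data. In GS/DA LRRK2 TG 7 genes had a higher TE when centred and 7 when rescaled, and in LRRK2 KO 2 had higher RNA-Seq when rescaled. With libraries left out in turn, the median footprint change ran from 0.11 to 0.12 in GS LRRK2 TG, 0.028 to 0.19 in GS/DA LRRK2 TG and -1.10 to 0.89 in LRRK2 KO. The median RNA-Seq change ran from -0.38 to 0.26 in GS LRRK2 TG, -0.32 to 0.41 in GS/DA LRRK2 TG and -0.32 to 0.16 in LRRK2 KO. The median TE change ran from -0.20 to 0.46, -0.25 to 0.57 and -0.69 to 0.93. Genes with a higher value numbered 6 to 8 in GS LRRK2 TG footprints and 3 to 7 in RNA-Seq, and in LRRK2 KO 0 to 9 in footprints, 1 to 6 in RNA-Seq and 1 to 9 in TE. The TE change of Aqp4 in GS LRRK2 TG ran from -0.18 to 1.95 and that of Slc1a2 in LRRK2 KO from -0.52 to 1.64. Of the 90 changes of single genes, 71 changed sign without some library, a count given without the share of all transcripts. For these sign changes the cause was not tested. A filter or 1 transcript per symbol does not alter the change of a single gene. With 2 pools a group, the power to detect a change was not tested.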
